A study of Mus musculus with 9 samples.

Results

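The 35 genes described here mark the 3 main kinds of non-parenchymal cell in the liver. They comprise 11 macrophage (Kupffer cell) markers, 12 hepatic stellate cell markers and 12 sinusoidal endothelial cell markers. They were chosen by name as cell type markers, out of 18193 genes with a probe set of their own on the array. All 35 had at least 1 probe set annotated to that gene alone, and the probe set with the highest mean signal over the 9 arrays represented the gene. The signals come from whole liver of female Crlj:CD1(ICR) mice, an outbred stock, bought at 9 weeks of age and quarantined for 1 week. Each of 3 groups held 3 samples, labelled as biological replicates, with 1 Affymetrix array per sample. For 2 weeks the mice ate powdered diet with 0 ppm of chemical (control), 5000 ppm permethrin, a pyrethroid insecticide, or 5000 ppm clofibrate, a fibrate drug that activates the nuclear receptor PPAR alpha. The organism field, source name and strain of the treated samples give mouse, although their description mentions rats.

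Kupffer cells are the resident macrophages of the liver. They sit inside the sinusoids and remove bacteria, debris and old blood cells from portal blood, using scavenger and complement receptors. Stellate cells lie between the endothelium and the hepatocytes, store vitamin A as retinyl esters, and make collagen when they are activated in injured liver. The sinusoidal endothelial cells line these vessels without a continuous basement membrane, take up waste molecules through scavenger and Fc receptors, and release signals such as BMP2 to the hepatocytes. In RNA from whole tissue, fewer cells of a type and less RNA of a marker per cell cannot be told apart.

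The results below are described first as signals, the linear intensity units of the deposited table, and then as log2 changes of signal plus an offset of 3.35. Unless stated otherwise ± is the SD of 3 arrays after a signal and the standard error after a log2 change. A change was called when its limma p-value, adjusted by the Benjamini-Hochberg method over all 24548 tested probe sets, was under 0.05. Of the 35 markers 34 passed the filter, a signal above 15.6 on at least 3 arrays, and 0 of them passed it through arrays of a single group. The exception was Timp1, an inhibitor of matrix metalloproteinases that activated stellate cells release. Its signals of 1.63, 13.4 and 3.43 in the 3 controls, 10.6, 9.30 and 4.64 with permethrin and 15.2, 6.40 and 14.7 with clofibrate were below the filter on all 9 arrays.

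The median signal of the arrays ranged from 13.4 to 17.9. Their trimmed mean of 100.001 was the same because the table is scaled to it, so it does not measure how alike the arrays were. The median gene of the 12467 tested changed by -0.04 (log2) in either treated group against control, so changes relative to it differ little from the plain ones. The hybridization controls are transcripts spiked into every sample alike. Their mean log2 signal ranged over 10.29 to 10.61 for control arrays, 10.13 to 10.48 for permethrin and 10.05 to 10.27 for clofibrate. Scaling to them moves the median gene to 0.11 with permethrin, to 0.26 with clofibrate, and to -0.16 when the treatments are compared. Centring each array on its median signal moves it to 0.06, 0.04 and 0.02 in that order. The tissue label was checked on markers of other cells. The hepatocyte gene Alb had a control signal of 9351 ± 274 and all 17 hepatocyte markers with a probe set were tested. The B cell gene Cd79a, with control signals of 7.07, 5.23 and 9.41, and the bile duct keratin Krt7, with 11.3, 5.74 and 3.83, were below the filter. Other genes of their lists passed it: 8 of 17 lymphocyte genes and 6 of 10 bile duct genes with a probe set were tested. Other cells are therefore not shown to be absent. The defining markers of all 3 cell types were also measured: Clec4f had a control signal of 559 ± 50.1, Dcn of 1340.1 ± 252 and Clec4g of 1036 ± 64.0.

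One array stood apart for the macrophage markers. On the array of permethrin replicate 3, all 11 macrophage markers had the highest signal of their group. Over all tested genes the share with the highest permethrin signal on that array was 30.4%. Relative to the median gene, all 11 lay more than 0.5 (log2) above their control mean there, by 0.50 to 1.94, against 11.5% of all tested genes. Clofibrate replicate 3 was the highest of its group for 10 of the 11, against 27.9% of all genes. In the control group replicate 2 was the highest for 8 of 11. The log2 changes of the 11 macrophage markers against control are given with replicate 3 of the treated group concerned and then without it. These arrays were picked after their high signals were seen. For markers highest on them, lower values without them follow from that choice.

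The picture of all markers by array shows this column of high macrophage signals, and the low signals of Fcgr2b in all 3 clofibrate arrays.

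**Figure D1:**
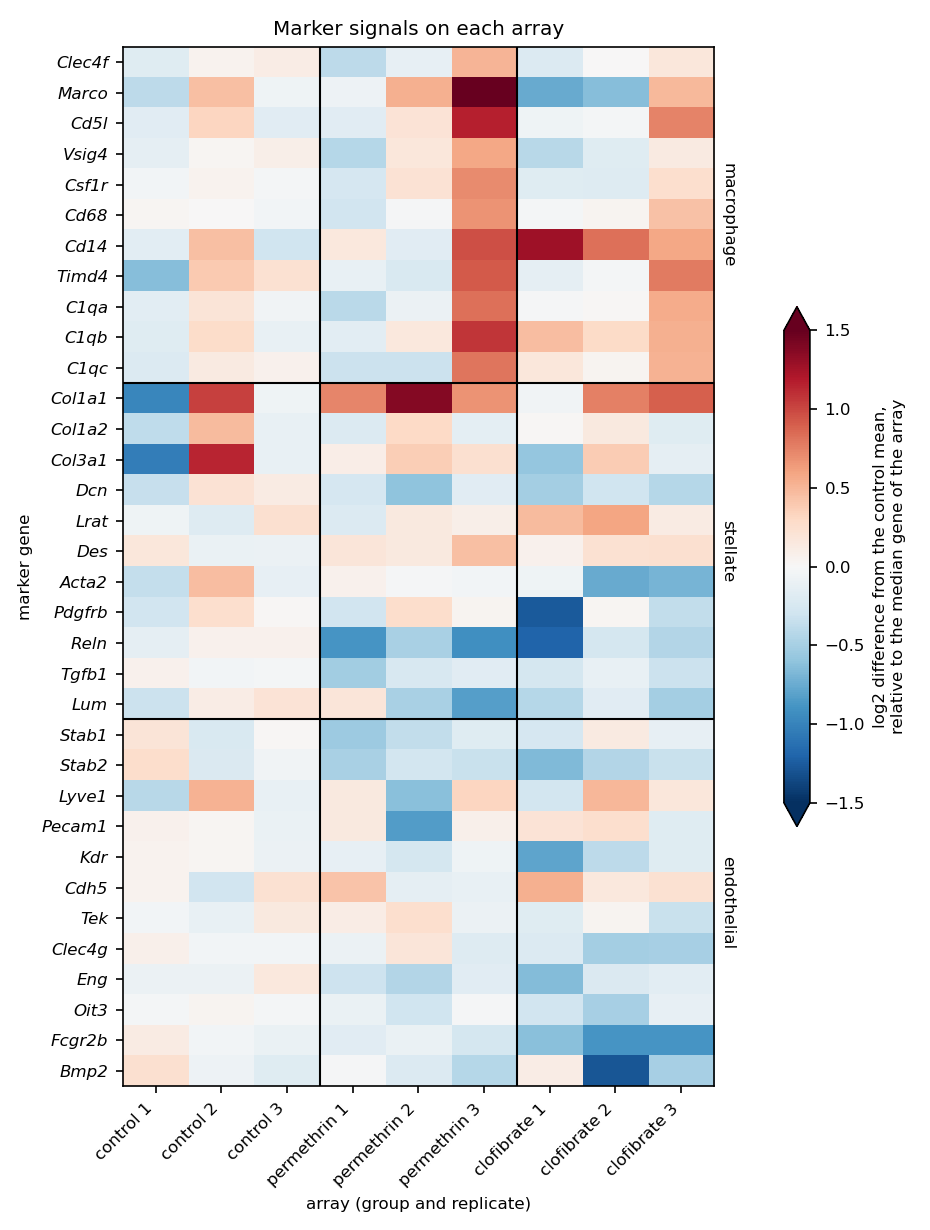
Signals of the 34 tested markers (rows) on the 9 arrays (columns), as the log2 difference from the control mean of each marker relative to the median gene of the array; red is higher, blue is lower, and the colour scale stops at 1.5 in either direction. The macrophage rows are red throughout on permethrin replicate 3, where they lie 0.50 to 1.94 above the control mean, and the Fcgr2b row is blue on the 3 clofibrate arrays.

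Promoter windows of 4 markers are printed as examples. C1qb and C1qc are neighbours in a run with C1qa. These 3 genes and Marco were the highest of their group on permethrin replicate 3, as were all 11 macrophage markers, so this does not set them apart. Fcgr2b was the 1 marker with a called change. Each window is from RefSeq on build GRCm38.p6 and spans 250 bases before to 50 after the annotated start of the gene, printed 5′ to 3′ on the strand of the gene. C1qb lies at chr4:136886151-136886450 (minus strand), C1qc at chr4:136892865-136893164 (minus strand), Marco at chr1:120504975-120505274 (minus strand) and Fcgr2b at chr1:170976022-170976321 (minus strand). Capitals mark GAGGAA, which reads as TTCCTC when it lies on the opposite strand. It is a core recognised by PU.1, an ETS family factor of macrophages.
C1qb: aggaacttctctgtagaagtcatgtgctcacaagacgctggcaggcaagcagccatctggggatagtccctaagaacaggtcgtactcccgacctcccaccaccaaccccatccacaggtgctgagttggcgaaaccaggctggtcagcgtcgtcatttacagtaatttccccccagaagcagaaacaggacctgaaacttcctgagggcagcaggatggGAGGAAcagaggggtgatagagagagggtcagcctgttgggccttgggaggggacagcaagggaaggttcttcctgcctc
C1qc: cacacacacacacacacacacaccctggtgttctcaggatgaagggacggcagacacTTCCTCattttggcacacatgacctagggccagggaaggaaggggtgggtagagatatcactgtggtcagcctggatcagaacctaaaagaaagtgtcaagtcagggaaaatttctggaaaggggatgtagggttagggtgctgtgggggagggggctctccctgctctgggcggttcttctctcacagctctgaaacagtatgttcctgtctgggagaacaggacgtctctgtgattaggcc
Marco: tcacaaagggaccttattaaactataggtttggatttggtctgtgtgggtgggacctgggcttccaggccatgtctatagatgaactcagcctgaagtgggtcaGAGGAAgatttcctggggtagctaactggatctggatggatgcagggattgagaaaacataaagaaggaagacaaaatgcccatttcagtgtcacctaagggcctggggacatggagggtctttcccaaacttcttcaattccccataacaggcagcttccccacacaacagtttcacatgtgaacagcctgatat
Fcgr2b: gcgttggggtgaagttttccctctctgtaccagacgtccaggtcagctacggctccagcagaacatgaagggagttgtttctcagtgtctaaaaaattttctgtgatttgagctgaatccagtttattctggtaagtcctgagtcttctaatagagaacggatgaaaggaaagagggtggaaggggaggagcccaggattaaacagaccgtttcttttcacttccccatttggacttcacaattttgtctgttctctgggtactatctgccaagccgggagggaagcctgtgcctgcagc
GAGGAA was found once in C1qb, once in C1qc, on the opposite strand, once in Marco and not in this window of Fcgr2b. Of the 35 markers 23 matched the promoter table. Counting either strand, 6 of 8 macrophage windows held GAGGAA (Marco, Cd5l, C1qb, C1qc, Cd68 and Vsig4), 1 of 8 stellate windows (Acta2) and 2 of 7 endothelial windows (Eng and Stab1), against 28.3% of all 32851 windows of the same length. The GATA core AGATAA, which the opposite strand shows as TTATCT, was found in 0 of 8, 0 of 8 and 1 of 7 windows (Tek), against 11.2% of all windows. These letters were only searched for, and binding was not measured. The printed macrophage windows all held GAGGAA, so they do not show the macrophage windows without it.

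Kupffer cell markers did not pass the test in any comparison. With permethrin 0 of 11 were called, where 2.13% of all 12467 genes were called (1.28% higher and 0.85% lower). With clofibrate 0 of 11 were called, against 7.03% of all genes. Between permethrin and clofibrate 0 of 11 were called, against 0.738% of all genes (0.473% higher and 0.265% lower with permethrin). At an unadjusted limma p under 0.05 there were 0 with permethrin, where 15.8% of all genes met that limit (6.89% higher). With clofibrate there was 1, Cd14, which was higher, against 21% of all genes in either direction and 9.03% higher. Between the treatments there was 1, Marco, higher with permethrin, against 13% in either direction, 6.59% higher and 6.44% lower. The median log2 change of the 11 genes relative to the median gene was 0.20 with permethrin and 0.20 with clofibrate. Leaving out 1 array at a time moved the permethrin median between -0.12 and 0.38, the highest without permethrin replicate 1. It moved the clofibrate median between -0.04 and 0.29, the highest without control replicate 2. Without permethrin replicate 3 the first value was -0.12, and without clofibrate replicate 3 the second was -0.04. The log2 change was above 0 for 10 of 11 genes with permethrin and for 1 of 11, Marco, without permethrin replicate 3. With clofibrate it was above 0 for 7 of 11 and, without clofibrate replicate 3, for 3 of 11 (Cd14, C1qb and C1qc). In both of these settings 0 of 11 were called by limma.

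The receptors by which Kupffer cells are recognised overlapped between the groups. Clec4f, a C-type lectin that in the mouse marks Kupffer cells, had signals of 501, 582 and 593 in the 3 controls, 407, 513 and 768 with permethrin and 477, 544 and 609.6 with clofibrate. Its groups overlapped, and the log2 change was -0.04 ± 0.20 with permethrin and -0.04 ± 0.20 with clofibrate. The 95% interval of each change, -0.48 to 0.40 and -0.48 to 0.39, leaves out a change of 2-fold in either direction. Without replicate 3 of the treated group the changes were -0.29 with permethrin and -0.13 with clofibrate.

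Csf1r, the receptor for the growth factor CSF1 on which macrophages depend, had signals of 1224, 1286 and 1192 in the 3 controls, 994, 1442 and 1957 with permethrin and 1075, 1049 and 1428 with clofibrate. Permethrin replicate 3 was the highest of the 9 arrays, and the ranges of the 3 groups overlapped (log2 change 0.19 ± 0.21 and -0.07 ± 0.21). For this probe set the permethrin change without permethrin replicate 3 was -0.043, and the clofibrate change without clofibrate replicate 3 was -0.22. The other probe sets of Csf1r were both highest on permethrin replicate 3 as well, at 429 and 275. The brighter of them changed by 0.52 ± 0.24 with permethrin (limma adjusted p = 0.372) and 0.24 ± 0.24 with clofibrate. Its permethrin signals of 240, 290 and 429 lay above its control signals of 214, 238 and 196, as was the case for 9.53% of all genes. The dimmer changed by 0.10 with permethrin and 0.10 with clofibrate. The sign of the clofibrate change thus depended on the probe set.

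Timd4, a receptor for phosphatidylserine on dying cells that marks long-lived Kupffer cells, had means of 35.2 ± 12.9 (control), 40.8 ± 20.7 (permethrin) and 40.1 ± 15.9 (clofibrate). Cd68, a lysosomal membrane glycoprotein of macrophages, had 57.1 ± 2.52 (control), 63.7 ± 24.0 (permethrin) and 62.8 ± 11.6 (clofibrate). Both are dim on this array, and their group means differed by less than the SD within the permethrin group. The log2 change of Timd4 was 0.16 with permethrin and 0.18 with clofibrate, or -0.20 and -0.11 without replicate 3 of the treated group. For Cd68 these values were 0.09 and 0.12, or -0.18 and -0.024.

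Marco, a scavenger receptor that binds bacteria and particles, had signals of 34.9, 64.6 and 43.2 in the 3 controls, 41.7, 68.6 and 181 with permethrin and 25.7, 27.4 and 64.4 with clofibrate. The permethrin mean of 97.1 ± 73.9 rests on replicate 3, and the log2 changes of 0.77 ± 0.47 with permethrin and -0.33 ± 0.47 with clofibrate were not called (limma adjusted p = 0.522 and 0.77). Without replicate 3 of the treated group they were 0.20 and -0.72. The difference between the treatments was 1.10 ± 0.47 (limma adjusted p = 0.38). The other tested probe set of Marco gave 0.30 ± 0.56 with permethrin and -0.17 ± 0.56 with clofibrate. Its difference between the treatments was 0.47 ± 0.56 (limma adjusted p = 0.795).

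Cd5l, a secreted macrophage protein with scavenger receptor domains, had signals of 521, 728 and 507 in the 3 controls, 491, 665 and 1259 with permethrin and 548, 547 and 942 with clofibrate. The high array of each treated group was replicate 3, the other 4 treated arrays lay within or next to the control range of 507 to 728, and neither change was called (0.36 ± 0.31 and 0.18 ± 0.31). Without permethrin replicate 3 the log2 change with permethrin was -0.015, and without clofibrate replicate 3 that with clofibrate was -0.076.

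Among the complement genes permethrin replicate 3 was again the highest of its group. Vsig4, a receptor that captures particles coated with complement C3 fragments, had means of 438 ± 30.2 (control), 480.3 ± 164 (permethrin) and 389 ± 73.6 (clofibrate). Its log2 changes were 0.07 and -0.18, or -0.16 and -0.33 without replicate 3 of the treated group. C1qa, C1qb and C1qc encode the chains of C1q, the recognition molecule that starts the classical complement pathway and is made by tissue macrophages. C1qa had signals of 404, 507 and 422 in the 3 controls, 318, 418 and 761 with permethrin and 433, 434 and 634 with clofibrate. C1qb had 241, 326 and 246 in the 3 controls, 229, 301 and 552 with permethrin and 368, 318 and 379 with clofibrate. C1qc had 257, 321 and 302 in the 3 controls, 224, 234 and 495 with permethrin and 327, 290.5 and 411 with clofibrate. In the representing probe sets of all 3 chains permethrin replicate 3 was the highest of the 9 arrays and permethrin replicate 1 was the lowest. Their changes lay between 0.02 and 0.32 with permethrin and between 0.15 and 0.39 with clofibrate, and none of them was called. The other tested probe sets of C1qb changed by 0.13 and 0.03 with permethrin and by 0.15 and 0.18 with clofibrate. Of the clofibrate arrays both were highest on replicate 1, at 422 and 319. Without permethrin replicate 3 the permethrin changes were -0.28 for C1qa, -0.031 for C1qb and -0.35 for C1qc. Without clofibrate replicate 3 the clofibrate changes were -0.029, 0.35 and 0.076.

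Among the representing probe sets, that of Cd14, the coreceptor for bacterial lipopolysaccharide, was the macrophage one whose groups did not overlap. Its signals were 62.9, 97.1 and 55.0 in the 3 controls, 74.9, 61.7 and 135 with permethrin and 172, 122 and 103 with clofibrate. All 3 clofibrate arrays lay above all 3 controls, as was the case for 11.6% of all genes (27.2% in either direction), and the difference of 0.86 ± 0.30 on the log2 scale was not called (limma adjusted p = 0.13). Without clofibrate replicate 3 the difference was 1.02 (limma adjusted p = 0.157). With permethrin the log2 change was 0.29 ± 0.30, or -0.032 without permethrin replicate 3, and the ranges overlapped. Of the 3 clofibrate arrays, replicate 1 was the highest for Cd14 and replicate 3 the lowest. In the representing probe sets of the other 10 macrophage markers replicate 3 was the highest. The other tested probe sets of C1qb were highest on replicate 1 instead.

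**Figure D2:**
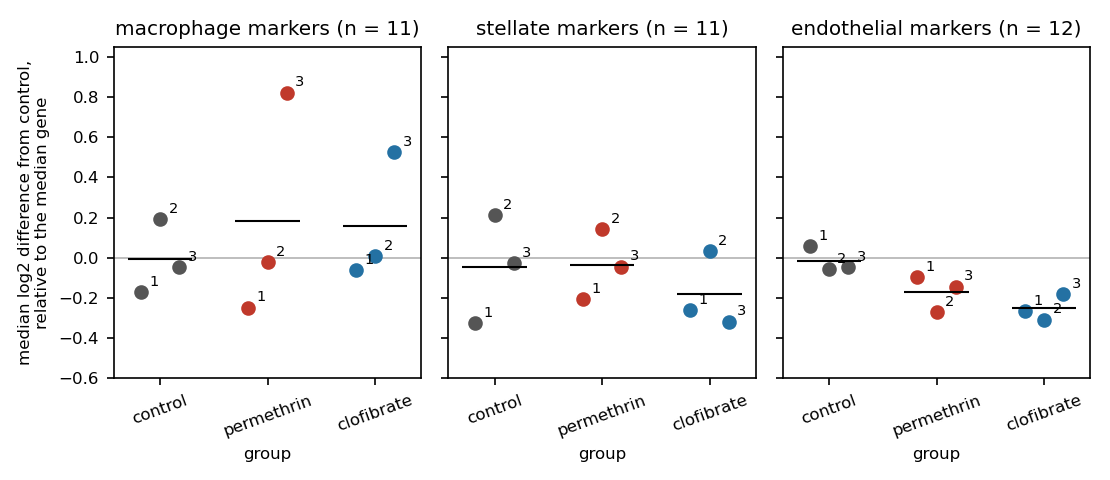
Median log2 difference from the control mean over the tested markers of each class, relative to the median gene, for each array (points, numbered by replicate; horizontal lines are group means of 3 arrays). Permethrin replicate 3 lies at 0.82 and clofibrate replicate 3 at 0.53 for macrophage markers, while for endothelial markers all 6 treated arrays lie below the 3 controls.

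A further 38 macrophage and myeloid genes were listed to see how far the pattern of the 11 held. Of these 33 were tested and 0 were called with permethrin or clofibrate against control, where 2.13% and 7.03% of all genes were called. Between the treatments 1 was called, against 0.738% of all genes. It was Cd9, a tetraspanin that is not confined to macrophages. Cd9 was lower with permethrin than with clofibrate, at 203 ± 14.6 against 345 ± 48.2 (log2 difference -0.75 ± 0.14, limma adjusted p = 0.0347). The median change of the 33 relative to the median gene was 0.17 with permethrin and 0.13 with clofibrate, or -0.03 and 0.04 without replicate 3 of the treated group. On permethrin replicate 3, 26 of the 33 had the highest signal of their group. Adgre1, which encodes the macrophage antigen F4/80, had signals of 142, 173 and 155 in the 3 controls, 136, 182 and 200.4 with permethrin and 155, 145 and 167 with clofibrate. Markers of other leukocytes on that array had a median level relative to the median gene of 0.41 for 9 monocyte and neutrophil genes and 0.21 for 8 lymphocyte genes, against 0.82 for the 11 macrophage markers and 0.61 for the 33 further macrophage genes. Their part in the macrophage levels was not tested.

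Stellate cell markers were not called in any comparison either. Of 11 tested, 0 passed with permethrin, 0 with clofibrate and 0 between the treatments, where the shares of all genes were 2.13%, 7.03% and 0.738%. At an unadjusted limma p under 0.05 there were 2 lower with permethrin (Reln and Dcn), against 8.9% of all genes, and 3 lower with clofibrate (Reln, Dcn and Acta2), against 12%. Between the treatments there were 2, Acta2 higher and Lrat lower with permethrin, where 13% of all genes met the limit (6.59% higher and 6.44% lower). The median relative to the median gene was 0.01 with permethrin and -0.22 with clofibrate, and without control replicate 1 these values were -0.20 and -0.52. Without control replicate 2 the permethrin value was 0.15, so its sign depends on which control is left out. Groups did not overlap, with the treated arrays lower, for 2 of 11 with permethrin (Reln and Tgfb1), against 13.2% of all genes (9.53% higher and 22.7% in either direction). With clofibrate this held for 3 of 11 (Dcn, Reln and Tgfb1), against 15.6% of all genes.

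Reln encodes reelin, a large secreted glycoprotein that stellate cells make in the liver. It had the lowest limma p of the stellate markers in both comparisons with control. Its signals were 707, 801 and 785 in the 3 controls, 394, 544 and 390.2 with permethrin and 326, 615 and 548 with clofibrate. All 6 treated arrays lay below the lowest control, and the log2 change was -0.80 ± 0.22 with permethrin (limma adjusted p = 0.104) and -0.67 ± 0.22 with clofibrate (limma adjusted p = 0.108). The 2 comparisons share their controls. With the model fitted to control and permethrin arrays alone, the permethrin change passed, with a limma adjusted p of 0.0338. It also passed without clofibrate replicate 1, which is not one of the arrays compared but enters the estimate of spread. Leaving that setting aside, the adjusted p over the alternatives ran from 0.0338 to 0.335.

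Dcn encodes decorin, a small proteoglycan that binds collagen fibrils, and had signals of 1058, 1539.7 and 1423 in the 3 controls, 1064, 872 and 1136 with permethrin and 919, 1042 and 958 with clofibrate. The 3 clofibrate arrays were below all controls, and the permethrin arrays overlapped only control replicate 1. The log2 change was -0.44 ± 0.15 with clofibrate (limma adjusted p = 0.124) and -0.38 ± 0.15 with permethrin (limma adjusted p = 0.289). Without control replicate 1 the clofibrate change was -0.61 and passed, with an adjusted p of 0.0464, within a range of 0.0464 to 0.763 over all alternatives. Lum, which encodes the related proteoglycan lumican, had means of 178 ± 31.3 (control), 137 ± 49.0 (permethrin) and 133 ± 16.5 (clofibrate), and its groups overlapped.

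Fibrillar collagens varied widely among the control mice. Col3a1, the chain of type III collagen, had signals of 164, 747 and 307 in the 3 controls, 344, 436 and 385 with permethrin and 221, 424 and 297 with clofibrate. Control replicates 1 and 2 were the lowest and the highest of all 9 arrays, so both treated groups lay inside the control range. Col1a2, a chain of type I collagen, had 74.1, 135 and 87.0 in the 3 controls, 78.8, 118 and 83.6 with permethrin and 95.7, 103 and 81.6 with clofibrate, again with control replicates 1 and 2 at the ends. Its log2 changes were -0.05 with permethrin and -0.04 with clofibrate. The other tested probe set of Col1a2, near the filter, gave 0.38 and 0.22, of opposite sign. Col1a1, the other chain of type I collagen, was dim, with 6 of 9 arrays above the filter. Its signals were 6.89, 37.2 and 15.3 in the 3 controls, 28.1, 48.0 and 27.2 with permethrin and 15.5, 29.1 and 32.6 with clofibrate. The log2 changes of Col1a1 were 0.89 ± 0.46 with permethrin and 0.50 ± 0.46 with clofibrate, and its other tested probe set gave -0.06 and -0.35, of opposite sign.

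The contractile and cytoskeletal markers rise when stellate cells become myofibroblasts. Acta2, smooth muscle actin, which arterial muscle makes too, had signals of 133, 235 and 153 in the 3 controls, 168, 167 and 158 with permethrin and 159, 95.6 and 99.7 with clofibrate. Its permethrin change was -0.03 ± 0.23 with overlapping groups, and its clofibrate change of -0.54 ± 0.23 was not called (limma adjusted p = 0.228). The Acta2 probe set is of the _s_at type, which can match more than 1 transcript. Des, the intermediate filament protein desmin, had means of 31.7 ± 4.16 (control), 37.6 ± 4.72 (permethrin) and 35.3 ± 2.24 (clofibrate). Pdgfrb, a growth factor receptor of stellate cells and pericytes, had means of 115 ± 21.2 (control), 113 ± 24.4 (permethrin) and 80.9 ± 33.9 (clofibrate), and the lowest of its 9 signals, 45.1, was that of clofibrate replicate 1.

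Lrat, the enzyme that turns retinol into retinyl esters for storage, differed between its probe sets. The brighter one had means of 130.2 ± 19.5 (control), 128 ± 19.1 (permethrin) and 169 ± 28.0 (clofibrate) and log2 changes of -0.02 ± 0.18 with permethrin and 0.36 ± 0.18 with clofibrate. The other, near the filter, gave -0.36 and -0.80, so the sign of the clofibrate change depends on the probe set. Scaled to the hybridization controls, Lrat was called higher with clofibrate, as the 1 marker called under that scaling. Tgfb1, the cytokine that drives collagen synthesis and is made by many cells, had signals of 78.7, 72.0 and 71.6 in the 3 controls, 48.2, 62.5 and 63.5 with permethrin and 60.7, 66.4 and 57.1 with clofibrate. All 6 treated arrays lay below the 3 controls, with log2 changes of -0.34 ± 0.16 and -0.26 ± 0.16, and neither was called (limma adjusted p = 0.369 and 0.422). The other tested probe set of Tgfb1, near the filter, gave -0.19 with permethrin and 0.27 with clofibrate, so the sign of the clofibrate change depends on the probe set. The clofibrate change of Tgfb1 was 0.049 under scaling to the hybridization controls, and 0.0029 as the mean of its probe sets.

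Of 47 further stellate and matrix genes 42 were tested. With permethrin 1 was lower and 0 higher, and with clofibrate 1 was lower and 1 higher. Of all genes 0.85% were lower and 1.28% higher with permethrin, and 3.8% and 3.22% with clofibrate. The gene lower in both was Fn1, fibronectin, which hepatocytes make in quantity as a plasma protein. Its signals were 4890.2, 4429 and 5129 in the 3 controls, 2820.5, 3517 and 3542 with permethrin and 3379, 3063 and 3329 with clofibrate, and its log2 change was -0.55 ± 0.11 with permethrin (limma adjusted p = 0.0287) and -0.56 ± 0.11 with clofibrate (limma adjusted p = 0.0115). The gene that rose was Spon2, a secreted matrix protein, with 88.8, 56.7 and 68.9 in the 3 controls, 164, 107 and 354 with permethrin and 357, 285 and 467 with clofibrate. Its log2 change with clofibrate was 2.31 ± 0.36 (limma adjusted p = 0.00325). The permethrin arrays lay above the controls too, with replicate 3 the highest, and that change was not called (log2 1.35 ± 0.36, limma adjusted p = 0.0973). On control replicate 2, 30 of the 42 had the highest signal of their group, against 33.2% of all genes, and on control replicate 1, 26 were the lowest, against 29% of all genes. Of 17 tested genes of the TGF beta pathway, 0 were called with permethrin and 1 with clofibrate, Tgif1, a transcriptional repressor that limits TGF beta responses, which rose from 61.4 ± 7.98 to 108 ± 12.0 (log2 0.79 ± 0.16, limma adjusted p = 0.0173).

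Endothelial markers held the single called change among the 34. Fcgr2b fell with clofibrate. This gene encodes the inhibitory Fc gamma receptor, which on sinusoidal endothelium takes up small immune complexes and which macrophages and B cells also make. Its signals were 802, 705 and 664 in the 3 controls, 612, 676 and 583 with permethrin and 462, 377 and 378 with clofibrate. The clofibrate arrays lay below every control and every permethrin array; in the comparison of the treatments 9.08% of all genes were so separated with permethrin higher, 9.02% with it lower and 18.1% in either direction. The log2 change with clofibrate was -0.83 ± 0.13, a fall of 1.78-fold (limma adjusted p = 0.00286). With permethrin it was -0.21 ± 0.13 and not called (limma adjusted p = 0.504). The difference between the treatments was 0.62 ± 0.13, higher with permethrin, and missed the threshold (limma adjusted p = 0.0575).

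The clofibrate call of Fcgr2b held without any 1 of the 6 arrays compared, with changes of -0.93 to -0.76 and limma adjusted p-values of 0.00226 to 0.02. Under scaling to the hybridization controls the change was -0.51 and the call ended (limma adjusted p = 0.101), while relative to the median gene the change was -0.77 there and -0.79 as reported. Over all alternatives the adjusted p ran from 0.000521 to 0.101. The gene has 4 tested probe sets, and the other 3 gave smaller changes of the same sign. The third brightest had signals of 267, 227 and 279 in the 3 controls, 238, 243 and 208 with permethrin and 149, 196 and 189.8 with clofibrate. Its change with clofibrate was -0.53 ± 0.15 (limma adjusted p = 0.0624). The second brightest and the dimmest changed by -0.36 ± 0.14 and -0.27 ± 0.13 (limma adjusted p = 0.168 and 0.301). In all 4 the clofibrate arrays lay below the controls. The representing probe set is of the _s_at type, so it may also read a related transcript. Fcgr3, an activating Fc gamma receptor of macrophages, had means of 55.3 ± 15.4 (control), 70.3 ± 20.0 (permethrin) and 63.6 ± 17.0 (clofibrate).

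**Figure D3:**
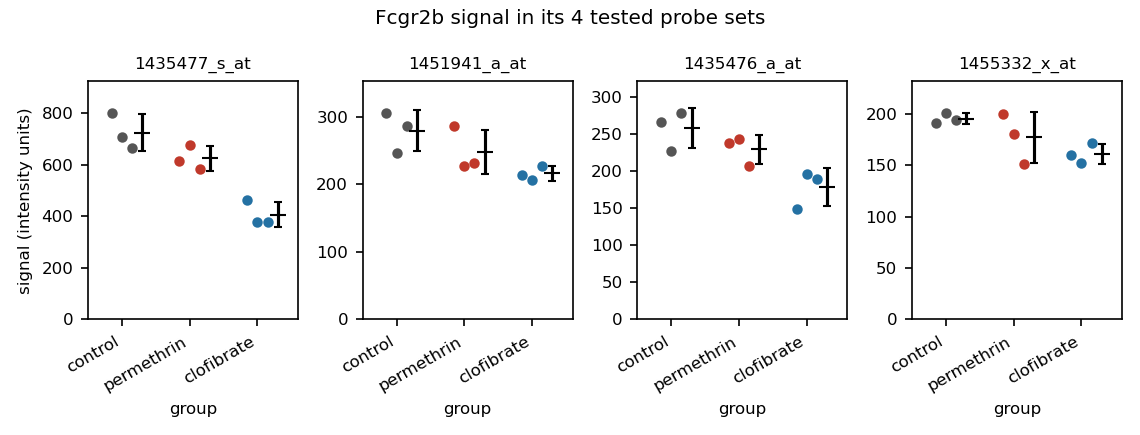
Signal of Fcgr2b (intensity units, axes from 0) in each of its 4 tested probe sets for the 3 arrays of each group (points), with the mean ± SD beside them. The clofibrate points lie below the control points in every panel, and the widest gap is that of the brightest probe set, from 724 ± 70.5 to 406 ± 49.0.

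The other 11 endothelial markers were not called. With clofibrate 1 of 12 was called lower and 0 higher, where 3.8% of all genes were called lower and 3.22% higher. With permethrin 0 of 12 were called, and 3 (Stab1, Stab2 and Eng) were lower at an unadjusted limma p under 0.05. The shares of all genes were 2.13% and 8.9%. With clofibrate 6 were lower at that limit, namely Stab2, Kdr, Clec4g, Eng, Oit3 and Fcgr2b, against 12% of all genes. The median relative to the median gene was -0.31 with clofibrate and -0.16 with permethrin. Leaving out 1 array at a time moved the clofibrate median between -0.37 and -0.23 and the permethrin median between -0.19 and -0.11. Treated and control arrays did not overlap, with the treated lower, for 6 of 12 genes with clofibrate (Stab2, Kdr, Clec4g, Eng, Oit3 and Fcgr2b). With permethrin this held for 5 of 12 (Stab1, Stab2, Kdr, Eng and Oit3). Over all genes those shares were 15.6% and 13.2%. These 2 comparisons share their controls. The hepatocyte list moved with clofibrate as well: 10 of its 17 tested genes were called lower, among them the urea cycle enzyme Cps1 (log2 -0.68), the plasma proteins Ahsg (-0.56) and Apoc3 (-0.42), and the fibrinogen chains Fga (-0.43), Fgb (-0.39) and Fgg (-0.39). Its median was -0.35, while with permethrin 0 of 17 were called and the median was -0.15. Treated and control arrays of the hepatocyte list did not overlap, with the treated lower, for 15 of 17 genes with clofibrate and 12 of 17 with permethrin. The shares of all genes were again 15.6% and 13.2%. At an unadjusted limma p under 0.05, 15 were lower with clofibrate and 7 with permethrin, against 12% and 8.9% of all genes. The part of these hepatocyte shifts in the endothelial values was not tested.

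Stab2, stabilin-2, which clears hyaluronan from blood, had signals of 370.3, 262 and 289 in the 3 controls, 207, 251 and 234 with permethrin and 189, 216 and 234 with clofibrate. All 6 treated arrays lay below the 3 controls, with a log2 change of -0.40 ± 0.15 with permethrin (limma adjusted p = 0.274) and -0.51 ± 0.15 with clofibrate (limma adjusted p = 0.0842), so neither was called. Stab1, stabilin-1, which takes up modified lipoproteins and matrix fragments, had 177, 129.6 and 152 in the 3 controls, 98.6, 117 and 129 with permethrin and 125, 161 and 135 with clofibrate. Its permethrin arrays were below the controls (-0.40 ± 0.17) and its clofibrate arrays overlapped them (-0.12 ± 0.17, or 0.20 under scaling to the hybridization controls). Lyve1, a hyaluronan receptor of lymphatic and sinusoidal endothelium, had means of 92.3 ± 32.7 (control), 86.6 ± 27.2 (permethrin) and 97.7 ± 25.6 (clofibrate), and the SD within a group exceeded the differences between groups. Its log2 changes were -0.08 ± 0.29 with permethrin and 0.10 ± 0.29 with clofibrate. The second tested probe set of Lyve1 gave 0.35 ± 0.26 and 0.39 ± 0.26, so the sign of the permethrin change depended on the probe set.

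Clec4g, a C-type lectin of sinusoidal endothelium also known as LSECtin, had signals of 1109.6, 1007 and 992 in the 3 controls, 934, 1175 and 879.7 with permethrin and 888, 701 and 712 with clofibrate. The clofibrate arrays were below all controls and the permethrin arrays spanned them. The change was -0.44 ± 0.14 with clofibrate (limma adjusted p = 0.0946) and -0.07 ± 0.14 with permethrin. Without clofibrate replicate 1 the clofibrate change was -0.55 and passed, with an adjusted p of 0.0452. With weights for array quality it passed as well, at -0.49 and an adjusted p of 0.0217. The range of that p over all alternatives was 0.0217 to 0.726. Oit3, a secreted ZP domain protein made by these cells, had means of 181 ± 6.42 (control), 160.1 ± 13.2 (permethrin) and 144 ± 19.4 (clofibrate), with both treated groups below the controls (-0.18 ± 0.14 and -0.34 ± 0.14, neither called).

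Among the receptors for growth factors, Kdr, the main VEGF receptor of endothelium, had signals of 175, 169.5 and 153 in the 3 controls, 145, 137 and 153 with permethrin and 93.5, 121 and 141 with clofibrate. The highest treated array, at 152.8, lay just under the lowest control, at 153.1, and the change was -0.19 ± 0.16 with permethrin and -0.49 ± 0.16 with clofibrate (limma adjusted p = 0.656 and 0.109). Eng, endoglin, a coreceptor for ligands of the BMP and TGF beta family, had 441, 436 and 508 in the 3 controls, 356, 341 and 396 with permethrin and 290.2, 383 and 401 with clofibrate. All treated arrays were below the controls, with log2 changes of -0.34 ± 0.14 and -0.37 ± 0.14, and neither change was called (limma adjusted p = 0.317 and 0.173). Its second tested probe set gave 0.05 with permethrin and -0.11 with clofibrate. Tek, the angiopoietin receptor Tie2, had means of 101 ± 8.46 (control), 105 ± 14.6 (permethrin) and 88.1 ± 11.7 (clofibrate).

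Junction proteins are shared by all endothelium. Cdh5, VE-cadherin, had means of 70.9 ± 12.4 (control), 72.6 ± 16.5 (permethrin) and 86.0 ± 13.6 (clofibrate), with log2 changes of 0.03 ± 0.20 and 0.27 ± 0.20. Pecam1, an adhesion molecule also known as CD31, had means of 43.1 ± 3.43 (control), 37.4 ± 12.9 (permethrin) and 45.5 ± 7.67 (clofibrate), with changes of -0.24 ± 0.25 and 0.06 ± 0.25. For both, the 3 groups overlapped.

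**Figure D4:**
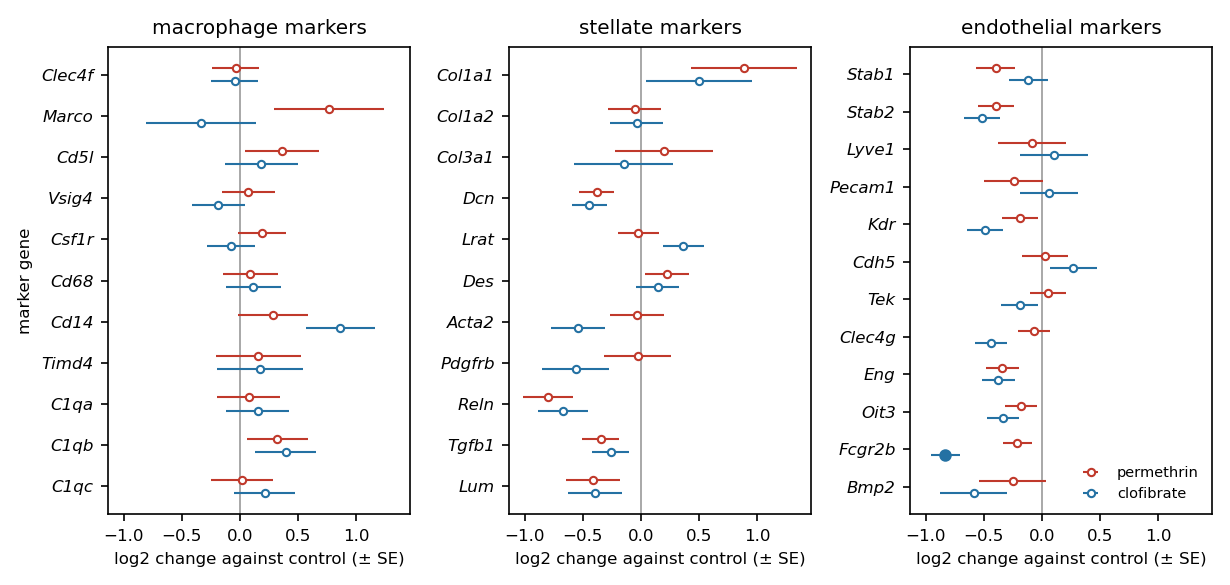
Log2 change of each tested marker against control with permethrin (red) and clofibrate (blue); bars are ± 1 standard error, n = 3 arrays per group, and a filled point marks a limma adjusted p under 0.05. The 1 filled point is Fcgr2b with clofibrate at -0.83, and the macrophage points lie on both sides of 0 with wider bars than most endothelial points.

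Bmp2, the sinusoidal ligand that induces hepcidin in hepatocytes, had signals of 257, 204 and 185 in the 3 controls, 202, 185 and 153 with permethrin and 228, 83.3 and 146 with clofibrate. Clofibrate replicate 2 was the lowest array and clofibrate replicate 1 lay within the control range, and the changes of -0.25 ± 0.29 and -0.59 ± 0.29 were not called (limma adjusted p = 0.766 and 0.305). Of 23 other tested genes of the BMP and hepcidin axis, 1 was called higher with permethrin and 2 were called lower with clofibrate. Of all genes 1.28% were called higher with permethrin and 3.8% lower with clofibrate. Hamp, which encodes hepcidin, the hormone that limits iron uptake, had 10999, 10436 and 10902 in the 3 controls, 8995, 9748 and 8907 with permethrin and 7015, 9002 and 7989.9 with clofibrate. It fell with clofibrate by 0.44 on the log2 scale (limma adjusted p = 0.022), and the permethrin change of -0.23 ± 0.10 was not called (limma adjusted p = 0.321). Tmprss6, a hepatocyte protease that restrains hepcidin, fell with clofibrate from 3515 ± 187 to 2345 ± 269.8 (log2 -0.59 ± 0.12, limma adjusted p = 0.0175). Hfe, a regulator of hepcidin, rose with permethrin from 563 ± 14.7 to 826 ± 40.3 (log2 0.55 ± 0.12, limma adjusted p = 0.0436). Bmp6, the other endothelial ligand of hepcidin, had means of 38.5 ± 6.51 (control), 40.7 ± 8.87 (permethrin) and 32.2 ± 4.40 (clofibrate), and its groups overlapped.

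Of 51 further endothelial genes 45 were tested, with a median relative to the median gene of -0.03 with permethrin and -0.04 with clofibrate. With permethrin 0 were called, and with clofibrate 1 rose and 0 fell, against 2.13% of all genes called with permethrin and 3.22% higher and 3.8% lower with clofibrate. The gene was Nrp2, neuropilin-2, a coreceptor for VEGF-C and semaphorins, with signals of 135, 139 and 101 in the 3 controls, 158, 148 and 284 with permethrin and 311, 330.1 and 325 with clofibrate. Its log2 change with clofibrate was 1.36 ± 0.22 (limma adjusted p = 0.00494). The 3 clofibrate arrays lay above all others, and with permethrin the change of 0.59 ± 0.22 was not called. Among genes of the VEGF and angiopoietin pathway, Nrp2 was likewise the 1 called of 17 tested. Groups did not overlap for 3 of the 45 with clofibrate lower, and for 6 of the 12 markers described above, against 15.6% of all genes. With permethrin lower this held for 7 of the 45 and 5 of the 12, against 13.2% of all genes. The differences between the 2 lists were not tested. Ptprb, an endothelial phosphatase, had means of 496 ± 32.2 (control), 459.7 ± 32.5 (permethrin) and 422 ± 26.9 (clofibrate), and Gata4, a transcription factor of sinusoidal endothelium, 76.4 ± 10.3 (control), 67.4 ± 10.9 (permethrin) and 60.5 ± 11.6 (clofibrate).

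The precision of these comparisons differed between the classes. The 95% interval of the log2 change lay within 2-fold in either direction for 12 of 12 endothelial markers with permethrin and 10 of 12 with clofibrate. For macrophage markers this held for 9 of 11 in both comparisons. For stellate markers it held for 8 of 11 and 6 of 11. Over all genes the shares were 77.1% and 74.7%. Between the treatments it held for 9 of 11, 7 of 11 and 12 of 12, against 78.9% of all genes. The pooled SD between replicates of the class level was 0.39 (log2) for macrophage, 0.21 for stellate and 0.07 for endothelial markers.

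The rest of the first component of complement was measured beside the C1q chains, in a list with receptors of Kupffer cells. Of its 16 tested genes 1 was called higher and 1 lower with permethrin, against 1.28% and 0.85% of all genes. With clofibrate 2 were higher and 4 lower, against 3.22% and 3.8%. Between the treatments 2 were higher with permethrin and 0 lower, against 0.473% and 0.265%. C1ra and C1s1 encode the proteases that join C1q to form C1, and hepatocytes make them. C1ra had signals of 1439.7, 1441 and 1523 in the 3 controls, 987, 999 and 1199 with permethrin and 670.0, 768 and 881 with clofibrate, and fell with clofibrate by 0.93 on the log2 scale (limma adjusted p = 0.00126). Its permethrin change was -0.47 ± 0.12 (limma adjusted p = 0.0944). C1s1 had 1822, 2110.0 and 1969.8 in the 3 controls, 861, 1012 and 1203 with permethrin and 654, 626 and 584 with clofibrate, and was called lower with both diets and lower with clofibrate than with permethrin (log2 difference 0.71 ± 0.13, limma adjusted p = 0.0347). In the same list Myd88, the adaptor of Toll-like receptors, rose with clofibrate from 165 ± 8.30 to 267 ± 16.2 (limma adjusted p = 0.0175). The scavenger receptor Scarb1 and the chaperone Calr, which many cells make, fell by 0.86 and 0.61 with clofibrate, and Calr was called higher with permethrin than with clofibrate (log2 difference 0.51 ± 0.09, limma adjusted p = 0.0411). In both treated groups Cd36, which hepatocytes and endothelium make as well, was called higher: it rose by 3.64 with permethrin and 4.49 with clofibrate on the log2 scale.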

How the data were processed

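RNA from the 9 livers was labelled as biotin cRNA and hybridised to Affymetrix arrays, per the labels' protocols. The authors computed MAS5 values, per the submitters' processing notes, with version and settings not given in the sources used here. Per probe set and array, the deposited table holds 1 linear intensity, scaled to 1 trimmed mean. Of 45037 probe sets (64 array controls left out), 34945 had 1 gene symbol, 932 several and 9160 none here; symbols of 34741 were updated through Entrez identifiers. The number of arrays limits the precision.

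An offset of 3.35 (20th percentile of signals) was added before log2. All 9 arrays entered 1 limma 3.58.1 model (R 4.3.3) with a mean per group and an intensity trend, over 24548 probe sets above 15.6 in at least 3 arrays. The fit was tested on simulated data. Tests were two-sided, with Benjamini-Hochberg adjustment. A gene was represented by its probe set with the highest mean signal, giving 12467 tested genes. The members, further lists and alternatives were chosen with earlier results of these data known. Markers were given on all arrays when called, when groups did not overlap with a change of at least 1.5-fold, or when among the 3 brightest of their class. The values of Marco, Timp1, Col1a1, Col1a2, C1qa, C1qb, C1qc, Acta2, Tgfb1, Stab1, Stab2, Kdr and Bmp2 were chosen for display after they were seen. In further lists, called genes are named, at most the 6 with the smallest p in a list and comparison, and Adgre1, Fcgr3, Bmp6, Ptprb, Gata4, Alb, Krt7, Krt19 and Cd79a were picked as examples after their values were seen. Arrays of one replicate number deviated from their group means with correlations of -0.109 to 0.113, and were not treated as pairs. Coordinates are those of the promoter table alone.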

Additional observations from a re-analysis of the deposited data

How the results depend on the processing

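In all, 21 alternatives were run, 9 of them leaving out 1 array. Fcgr2b was called lower with clofibrate in all but scaling to the hybridization controls, and the macrophage markers had 0 calls throughout. The median relative to the median gene kept its sign in every alternative run for endothelial markers in all 3 comparisons and for stellate markers with clofibrate.

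Over all genes 266 were called with permethrin, 876 with clofibrate and 92 between the treatments. In that order they were 143, 487 and 33 after centring arrays on their medians, and 80, 396 and 10 with no intensity trend. Scaling to the hybridization controls gave 176 for the first and 43 for the last, array weights gave 1496 for the second and 226 for the last, and a model of only the compared groups gave 48 for the last. The splits into higher and lower were 160 and 106, 402 and 474, and 59 and 33. They were 117 and 26, 305 and 182, and 26 and 7 with arrays centred, and 154 and 22, 971 and 91, and 10 and 33 scaled to the hybridization controls. Leaving out 1 array gave 108 to 318, 430 to 889 and 17 to 119 calls. The cause was not tested.

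Stellate markers called were 1 with clofibrate under hybridization scaling (Lrat) and 1 with permethrin when only those groups were fitted (Reln). Endothelial markers called with clofibrate were 0 under hybridization scaling and 2 with array weights, where their median was -0.23. Between permethrin and clofibrate, 1 endothelial marker, Fcgr2b, was called with array weights (log2 0.66, limma adjusted p = 0.0191) and with only probe sets of mean signal above 50. Leaving out arrays gave, with clofibrate, 0 to 1 stellate calls with a median of -0.52 to -0.16 and 1 to 2 endothelial calls with a median of -0.37 to -0.23, and between treatments 0 to 1 endothelial calls. Without clofibrate replicate 1, Fcgr2b differed between the treatments by 0.72 (limma adjusted p = 0.0372).

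With the replicate block there were 205, 726 and 63 calls in the order above; the samples share only a number, and the block moved no marker across the threshold.

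Among 810 comparisons of 15 markers' log2 changes with an alternative, 46 changed sign, 19 of them by more than the standard error, all in estimates that were not called. Scaling to the hybridization controls gave 0.10 for Clec4g with permethrin. With clofibrate it gave 0.28 for Clec4f, 0.25 for Csf1r, 0.049 for Tgfb1 and 0.20 for Stab1. For permethrin against clofibrate it gave -0.094 for Dcn, -0.13 for Eng, -0.044 for Stab2 and -0.00030 for Oit3. The mean over probe sets gave 0.0029 for Tgfb1 with clofibrate. The others came from leaving out arrays. With permethrin, Clec4f ran from -0.29 to 0.17, Cd5l from -0.015 to 0.66, Csf1r from -0.043 to 0.44, Cd14 from -0.032 to 0.52 and Col3a1 from -0.31 to 0.77. With clofibrate, Col3a1 ran from -0.66 to 0.43. Between the treatments, Clec4f ran from -0.24 to 0.21, Cd5l from -0.20 to 0.48 and Eng from -0.11 to 0.12. For the macrophage genes the value of opposite sign was the one without permethrin replicate 3, except Clec4f with permethrin, which turned positive without permethrin replicate 1. For Col3a1 it was the one without control replicate 1 with permethrin and without control replicate 2 with clofibrate, and for Eng the one without clofibrate replicate 1.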

Other observations

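Markers of the remaining cell types of the liver, and of the pancreas, were listed as well. Of all genes 1.28% were called higher and 0.85% lower with permethrin, and 3.22% and 3.8% with clofibrate. Of 6 tested bile duct genes, 1 was called, Krt23, a keratin, which rose with clofibrate from 26.0, 23.2 and 71.2 in the 3 controls to 324, 491 and 499, a log2 change of 3.48 ± 0.43 (limma adjusted p = 0.000767). Its permethrin signals of 85.6, 181 and 60.7 overlapped the controls. The defining bile duct keratin Krt19 did not rise with it, with means of 25.3 ± 4.97 (control), 17.5 ± 10.1 (permethrin) and 15.2 ± 4.13 (clofibrate). Of 9 tested monocyte and neutrophil genes, 1 was called, Elane, neutrophil elastase. Its control signals of 9.94, 10.1 and 4.01 were below the filter. Its signals were 27.6, 26.7 and 28.2 with permethrin (log2 1.49 ± 0.31, limma adjusted p = 0.04) and 28.5, 22.5 and 18.1 with clofibrate (log2 1.25 ± 0.31, limma adjusted p = 0.042). Elane thus entered the test only through treated arrays, where it was high, so its calls are no independent support for a rise. All its signals are low or near the filter, so the size depends on the offset. Of 8 tested lymphocyte genes 0 were called by limma against control. At an unadjusted limma p under 0.05 there were 0 with permethrin, against 15.8% of all genes. With clofibrate there was 1, which was higher, against 21% of all genes in either direction and 9.03% higher. Of 5 tested pancreas genes, 1 was called, Cela1, an elastase, which fell from 1076, 1399 and 1409 in the 3 controls to 287, 165 and 169 with permethrin (log2 -2.66 ± 0.20, limma adjusted p = 6.02e-05) and 204, 216 and 179 with clofibrate (log2 -2.67 ± 0.20, limma adjusted p = 3.7e-05). The median of the 5 relative to the median gene was -0.67 with permethrin and -0.12 with clofibrate. Groups did not overlap, with the treated lower, for 4 of 5 with permethrin and 2 of 5 with clofibrate, against 13.2% and 15.6% of all genes. Which cells the Cela1 signal came from was not tested.

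Of 10 tested cell division genes 0 were called by limma in any comparison, where 2.13%, 7.03% and 0.738% of all genes were called. At an unadjusted limma p under 0.05 there were 1 with permethrin, 2 with clofibrate and 1 between the treatments. The shares of all genes at that limit were 15.8%, 21% and 13%. The spread between arrays of 1 group was wide. The median level of the list relative to the median gene was -0.78, 0.78 and 0.22 on the 3 control arrays, 0.35, 0.03 and 0.21 with permethrin and -0.67, 0.39 and -0.72 with clofibrate. Control replicate 1 was the lowest of its group for 10 of 10 genes and clofibrate replicate 2 the highest for 9 of 10. The median differences of 0.19 with permethrin, -0.26 with clofibrate and 0.57 between the treatments lay within that spread.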
